A study of Rattus norvegicus with 49 samples.

Results

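The genes of fatty acid synthesis described here are Fasn, Acaca, Acly, Scd, Elovl6, Me1, Srebf1, Thrsp, Fads1 and Fads2. They were taken as every probe set whose platform annotation names exactly 1 of these 10 symbols, which gave 17 of the 31099 probe sets of the array. Fasn, Acaca, Elovl6, Me1 and Srebf1 have 2 probe sets each, Thrsp has 3, and Acly, Scd, Fads1 and Fads2 have 1 each. The samples are livers and kidneys of male Harlan Sprague Dawley rats (Hsd:Sprague Dawley SD, an outbred laboratory stock), aged 6 to 8 weeks at assignment and kept on NTP-2000 diet. The rats were dosed by gavage on 5 consecutive days with propylene glycol phenyl ether, a glycol ether solvent, in corn oil at 5 mL/kg, or with corn oil alone, and were killed on the following day. The treatment protocol of the labels names another compound (MCHM), and the series title and sample labels are followed here. Tissue was collected at 0, 1, 10, 100, 500 and 1000 mg/kg, and not at 2000 mg/kg, where rats were killed moribund. Controls at 0 mg/kg numbered 5 in each organ and every other dose had 4 arrays per organ, except for 3 kidneys at 500 mg/kg, making 25 liver and 24 kidney arrays. All groups, controls included, received corn oil, and the feeding state at death is not given in the labels. Whether a liver and a kidney array come from the same rat is not stated.

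Fatty acids are built in the cytosol from acetyl-CoA. Acly splits citrate to supply it, Acaca converts it to malonyl-CoA in the committed step, and Fasn joins the units into palmitate with NADPH, part of which comes from the malic enzyme Me1. Elovl6 lengthens palmitate, Scd puts in the first double bond of saturated acyl chains, and Fads1 and Fads2 desaturate polyunsaturated fatty acids. In the rodent liver, feeding and insulin raise most of these genes through Srebf1, which encodes the transcription factor SREBP-1, and Thrsp (Spot 14) is a carbohydrate- and thyroid-hormone-responsive protein of lipogenic tissues, among them adipose tissue.

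RefSeq promoter windows of build GRCr8, holding the 250 bases before an annotated start site, were matched for 7 of the 10 genes, with 2 windows for Srebf1. Those of Me1, Srebf1 and Thrsp are shown, 5′ to 3′ on the strand of the gene: Me1 for its response in liver, and Srebf1 and Thrsp as a regulator and a marker of lipogenesis that varied with Fasn among livers. They are the 3 of the 8 windows that lie wholly upstream of the annotated gene. Capitals mark the letters TGACNNNGC in Me1, the core of the antioxidant response element that NRF2 binds, and CCAAT or its reverse complement in the others.
Me1 chr8:96540245-96540494 (-): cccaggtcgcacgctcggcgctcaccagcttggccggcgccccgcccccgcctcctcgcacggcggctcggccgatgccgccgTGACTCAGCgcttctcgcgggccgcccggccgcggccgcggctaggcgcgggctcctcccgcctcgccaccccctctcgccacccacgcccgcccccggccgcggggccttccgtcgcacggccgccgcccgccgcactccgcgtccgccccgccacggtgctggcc
Srebf1 chr10:45529165-45529414 (-): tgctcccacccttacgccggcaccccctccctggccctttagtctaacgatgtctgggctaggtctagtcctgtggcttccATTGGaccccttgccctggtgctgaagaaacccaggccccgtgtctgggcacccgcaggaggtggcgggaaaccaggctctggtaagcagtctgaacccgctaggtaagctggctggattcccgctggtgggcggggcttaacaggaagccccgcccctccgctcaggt
Thrsp chr1:161138965-161139214 (-): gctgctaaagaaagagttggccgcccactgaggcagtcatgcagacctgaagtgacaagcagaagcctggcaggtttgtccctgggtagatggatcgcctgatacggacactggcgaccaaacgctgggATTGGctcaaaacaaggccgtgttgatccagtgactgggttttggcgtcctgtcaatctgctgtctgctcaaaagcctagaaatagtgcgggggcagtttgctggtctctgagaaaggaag
Searched on both strands, TGACNNNGC was found in 2 of the 8 windows, those of Me1 at position -167 and Scd at -127 from the start site, and in 10.1% of 33469 rat windows of the same length. CCAAT was found in 5 of the 8 (Acly, Thrsp, Fads1 and both of Srebf1) and in 34.0% of all windows, and GGGCGG, the GC box, in 7 of the 8 and in 30.5%. Neither TCACNCCAC, the sterol element, nor CACGTG, the E-box, was found in any of the 8, against 0.974% and 5.59% of all windows. No match of one motif shares bases with a match of another in these windows, and a match of letters only describes the window.

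All values are the deposited RMA log2 values, and a change is a difference of group means on that scale. The median of an array ranged over 5.21 to 5.31 for livers and 5.33 to 5.37 for kidneys. The 6 hepatocyte markers had medians over arrays of 9.58 to 14.67 in liver and 2.93 to 5.09 in kidney, and the 6 proximal tubule markers had medians of 10.27 to 14.52 in kidney and 3.20 to 6.80 in liver, as the tissue labels state. Each probe set was tested with limma among all 31042 probe sets that are not controls, with 1 mean per dose, and a probe set was called where its adjusted p (Benjamini-Hochberg, over all of them) was under 0.05. Precision is limited by how few arrays each group has. Of the 24 kidney arrays 7 were high in adipocyte markers, by more than 0.5 on the log2 scale above the control mean, among them 1 control, so that every kidney change from the controls rests in part on them. Kidney changes at 1000 mg/kg are therefore also given over the other 17 kidneys.

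In liver, Me1 was the 1 gene of fatty acid synthesis called at 1000 mg/kg, on 1 of its 2 probe sets, which rose 1.75-fold. This call was lost under some of the alternatives given below. Fasn, Acaca, Acly, Scd, Elovl6, Srebf1, Thrsp, Fads1 and Fads2 did not pass the test. Of the 17 probe sets 1 was called, against 93 of all 31042 probe sets (0.300%), of which 70 were higher (0.226%) and 23 lower (0.0741%). With quantile normalization within the organ the split over all probe sets was 66 higher and 44 lower, and with arrays centred on their median 72 and 18. At the unadjusted level, 3 of the 17 had p under 0.05, against 9.53% of all probe sets. The median change of the 17 was 0.14, with 10 positive and 7 negative, against 0.00 for all probe sets.

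Me1 encodes the cytosolic malic enzyme, which turns malate into pyruvate and yields NADPH. Its probe set 1370067_at had values of 9.73, 9.60, 9.86 and 10.10 in livers at 1000 mg/kg, against 9.06, 8.69, 9.22, 9.01 and 9.11 in control livers. Every array at 1000 mg/kg lay above every control array. The means were 9.82 ± 0.21 (SD, n = 4) and 9.02 ± 0.20 (SD, n = 5), a change of 0.80 (95% interval 0.47 to 1.14, limma adjusted p = 0.0277). At 500 mg/kg the values were 10.00, 9.39, 10.30 and 9.56, again all above the controls. The change there was 0.79 and did not pass (limma adjusted p = 0.155). At 1, 10 and 100 mg/kg the changes were 0.18, 0.22 and 0.25, and the arrays of these groups overlapped the controls. All these comparisons share the control arrays. The second probe set, 1370870_at, had 9.11, 8.72, 9.20 and 9.47 at 1000 mg/kg, against 8.68, 8.11, 8.87, 8.37 and 8.50 in controls. It overlapped the controls and did not pass, at 0.62 (limma adjusted p = 0.364).

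Over all 6 doses, the slope of Me1 1370067_at on dose rank in liver was 0.17 per step with an SE of 0.03 (limma adjusted p = 0.00820). It was the 1 called probe set of the 17 in this trend, which called 72 of all probe sets (0.232%), 52 with a positive slope (0.168%) and 20 with a negative one (0.0644%), and it stayed called when any 1 array was left out. With quantile normalization 38 slopes of all probe sets were called positive and 24 negative. The other Me1 probe set had a slope of 0.15 (limma adjusted p = 0.123). At 1000 mg/kg the call was less stable: it was lost without control replicate 1, 2 or 4 or without 1000 mg/kg replicate 3 or 4, at limma adjusted p-values of 0.0532, 0.0747, 0.0569, 0.108 and 0.111. It was also lost in a fit of the 2 groups alone (adjusted p = 0.0502) and with the mean of both probe sets (adjusted p = 0.0795). The change ranged from 0.71 to 0.88 over these and the other alternatives.

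**Figure D1:**
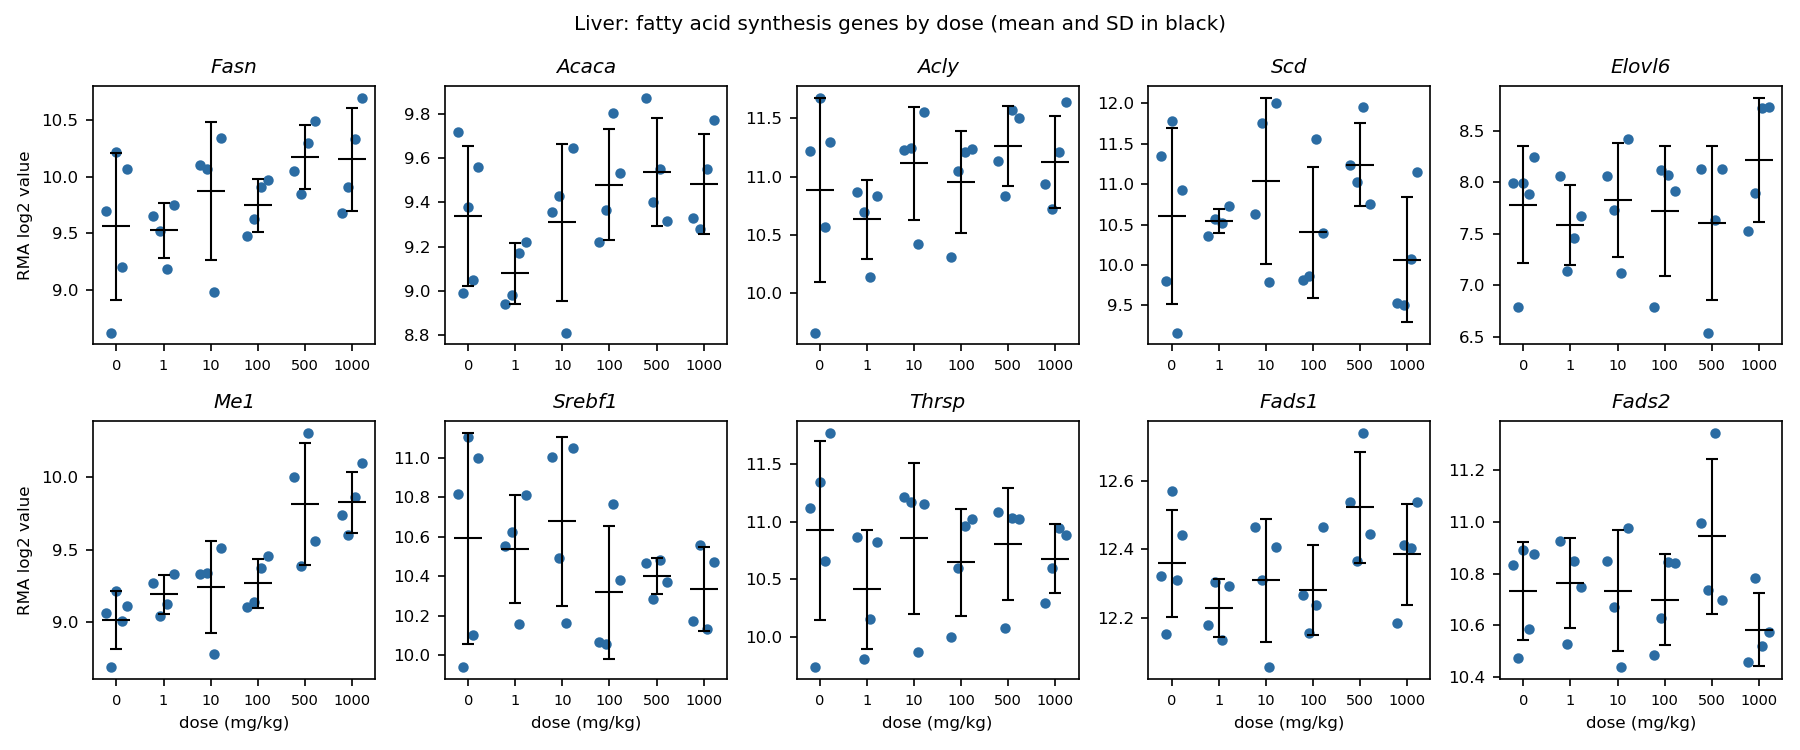
RMA log2 value (y axis) of 1 probe set per gene in each liver array by dose in mg/kg (x axis), with the mean and SD of each group in black. Me1 arrays at 1000 mg/kg lie between 9.60 and 10.10, all above the control arrays, while the 1000 mg/kg and control arrays of each of the other 9 genes overlap.

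Of the enzymes that supply and join the carbon units, none passed in liver. Acly, ATP-citrate lyase, had 10.94, 10.72, 11.21 and 11.64 at 1000 mg/kg, against 11.22, 9.66, 11.68, 10.57 and 11.30 in controls. The groups overlapped, and the change was 0.24 (95% interval -0.40 to 0.89). Acaca, acetyl-CoA carboxylase 1, had 9.33, 9.28, 9.55 and 9.77 on 1370893_at, against 9.72, 8.99, 9.38, 9.05 and 9.56, a change of 0.14 (95% interval -0.20 to 0.49). Its second probe set, 1387538_at, lay between 3.83 and 4.48 in all livers. Fasn, fatty acid synthase, had 9.67, 9.91, 10.33 and 10.69 on 1367708_a_at at 1000 mg/kg, against 9.70, 8.63, 10.21, 9.21 and 10.06 in controls. The 2 lowest control livers lay below every array at 1000 mg/kg, and the other 3 lay within their range. The change was 0.59 (95% interval 0.01 to 1.17, limma adjusted p = 0.513), and it was 0.56 on 1367707_at. At 500 mg/kg Fasn 1367708_a_at had 10.05, 9.84, 10.29 and 10.49, a change of 0.61 (limma adjusted p = 0.579).

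Among the enzymes that lengthen and desaturate the chain, Scd, stearoyl-CoA desaturase, had its highest group mean at 500 mg/kg and its lowest at 1000 mg/kg, and no comparison passed. Its values were 9.53, 9.51, 10.08 and 11.15 at 1000 mg/kg, against 11.34, 9.80, 11.78, 9.17 and 10.93 in controls and 11.23, 11.02, 11.96 and 10.76 at 500 mg/kg. The change at 1000 mg/kg from controls was -0.54 (95% interval -1.55 to 0.47), and that at 500 mg/kg was 0.64. Between 1000 and 500 mg/kg the difference was -1.18 (95% interval -2.24 to -0.11, limma adjusted p = 0.910). In that comparison 0 of the 17 and 0 of all probe sets were called (0%), and 3 of the 17 had unadjusted p under 0.05, against 5.26% of all. Chosen after the values were seen, the difference of Scd minus Fasn within each array was -0.15, -0.40, -0.25 and 0.46 at 1000 mg/kg, against 1.65, 1.18, 1.57, -0.04 and 0.87 in controls. Of the 4 arrays at 1000 mg/kg 3 lay below every control, and the other one lay among them.

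Elovl6, the elongase of palmitate, had 7.53, 7.90, 8.72 and 8.73 on 1388108_at in livers at 1000 mg/kg, against 7.99, 6.79, 7.99, 7.88 and 8.24 in controls. Both groups spanned more than 1 unit, and the change was 0.44 (95% interval -0.30 to 1.18), with 0.42 on 1394401_at. Fads1, the delta-5 desaturase, and Fads2, the delta-6 desaturase, had differences of 0.03 (95% interval -0.18 to 0.24) and -0.15 (95% interval -0.43 to 0.13). Fads1 stayed between 12.06 and 12.74 in all 25 livers.

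The regulator Srebf1 and the lipogenic protein Thrsp had lower means at 1000 mg/kg than in controls, none past the test. Srebf1 1388426_at had 10.17, 10.56, 10.13 and 10.47 at 1000 mg/kg, against 10.82, 9.94, 11.10, 10.10 and 11.00 in controls. The controls spread over more than 1 unit and enclosed every array at 1000 mg/kg. The change was -0.26 (95% interval -0.71 to 0.20), with -0.19 on 1371104_at. Thrsp 1371400_at had 10.30, 10.60, 10.95 and 10.88, against 11.12, 9.74, 11.35, 10.66 and 11.78, a change of -0.25 (95% interval -0.96 to 0.47). Its other probe sets gave -0.21 and -0.26.

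**Figure D2:**
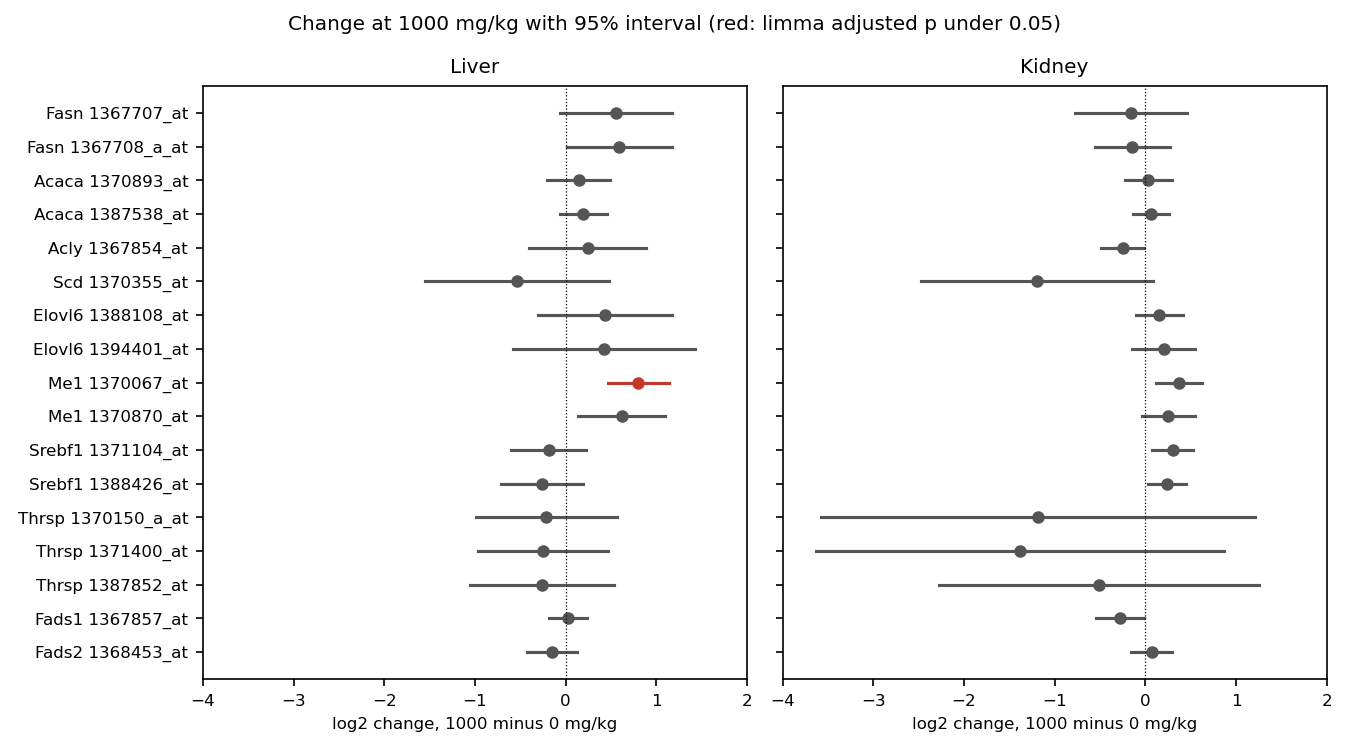
Log2 change at 1000 mg/kg minus 0 mg/kg (x axis) of the 17 probe sets (y axis) in liver at left and kidney at right, as points with 95% intervals from limma. The interval of Me1 1370067_at in liver, in red, runs from 0.47 to 1.14 and belongs to the 1 called probe set, and the widest intervals are those of Thrsp in kidney.

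At the lower doses none of the 17 was called in liver. Over all probe sets the test called 0 at 1 and at 100 mg/kg (0%). It called 1 (0.00322%) for the 10 mg/kg group and 4 (0.0129%) for the 500 mg/kg group. At the unadjusted level, 0 of the 17 had p under 0.05 at 1, 10 and 100 mg/kg, against 7.82%, 7.58% and 7.53% of all probe sets. At 500 mg/kg 3 of the 17 did, namely Fasn 1367708_a_at and both of Me1, against 8.29% of all.

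The livers differed widely among themselves at the same dose. Around the dose means, the SD of Scd 1370355_at was 0.81, of Thrsp 1371400_at 0.57, of Elovl6 1388108_at 0.59, of Acly 0.51 and of Fasn 1367708_a_at 0.46, against a median of 0.19 over all probe sets. For each of these 5, at least 98.6% of all probe sets had a smaller SD. Me1 1370067_at (0.26), Acaca 1370893_at (0.27) and Fads2 (0.21) lay nearer that median, and Fads1 (0.15) lay below it. A single control, replicate 2, was the lowest control in Fasn, Acly, Acaca, Elovl6, Srebf1, Thrsp and Me1, and its Elovl6 value of 6.79 lay far below the next control at 7.88.

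This spread was shared. After each dose mean was subtracted, the 45 pairs among the 10 genes, 1 probe set each, correlated positively over the 25 livers in every case, with a median Pearson r of 0.70 and a range of 0.47 to 0.94. All values of an array share its RNA extract and normalization, and of all 14217 genes 3.23% had an r above 0.5 with Fasn. Fasn followed Acly most closely (r = 0.94, Spearman's rho = 0.88, permutation p = 1e-05, the smallest the 100000 permutations can give, adjusted p = 0.00018). With Thrsp its r was 0.87 (rho = 0.79, permutation p = 3e-05, adjusted p = 0.00018) and with Srebf1 0.80 (rho = 0.73, permutation p = 0.00016, adjusted p = 0.00048). With Fads1 it was 0.79 (rho = 0.73), with Elovl6 0.76 (rho = 0.69), with Scd 0.75 (rho = 0.73), with Me1 0.71 (rho = 0.66), with Acaca 0.69 (rho = 0.59) and with Fads2 0.56 (rho = 0.49). Permutation p-values of these 6 were 8e-05, 4e-05, 0.00109, 0.00035, 0.00383 and 0.0079, with adjusted values of 0.000288, 0.00018, 0.00218, 0.0009, 0.00689 and 0.0129. All 9 pairs passed when adjusted over 18 pairs, 9 in each organ. Without the 2 livers farthest from the median of Fasn, 7 of 9 passed: r with Acly was 0.90, with Thrsp 0.73, with Scd 0.69, with Srebf1 0.67, with Fads1 0.66, with Elovl6 0.64 and with Me1 0.54. The relation with Acaca (r = 0.48, permutation adjusted p = 0.11) and with Fads2 (r = 0.34, permutation adjusted p = 0.192) did not pass without those 2 livers.

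**Figure D3:**
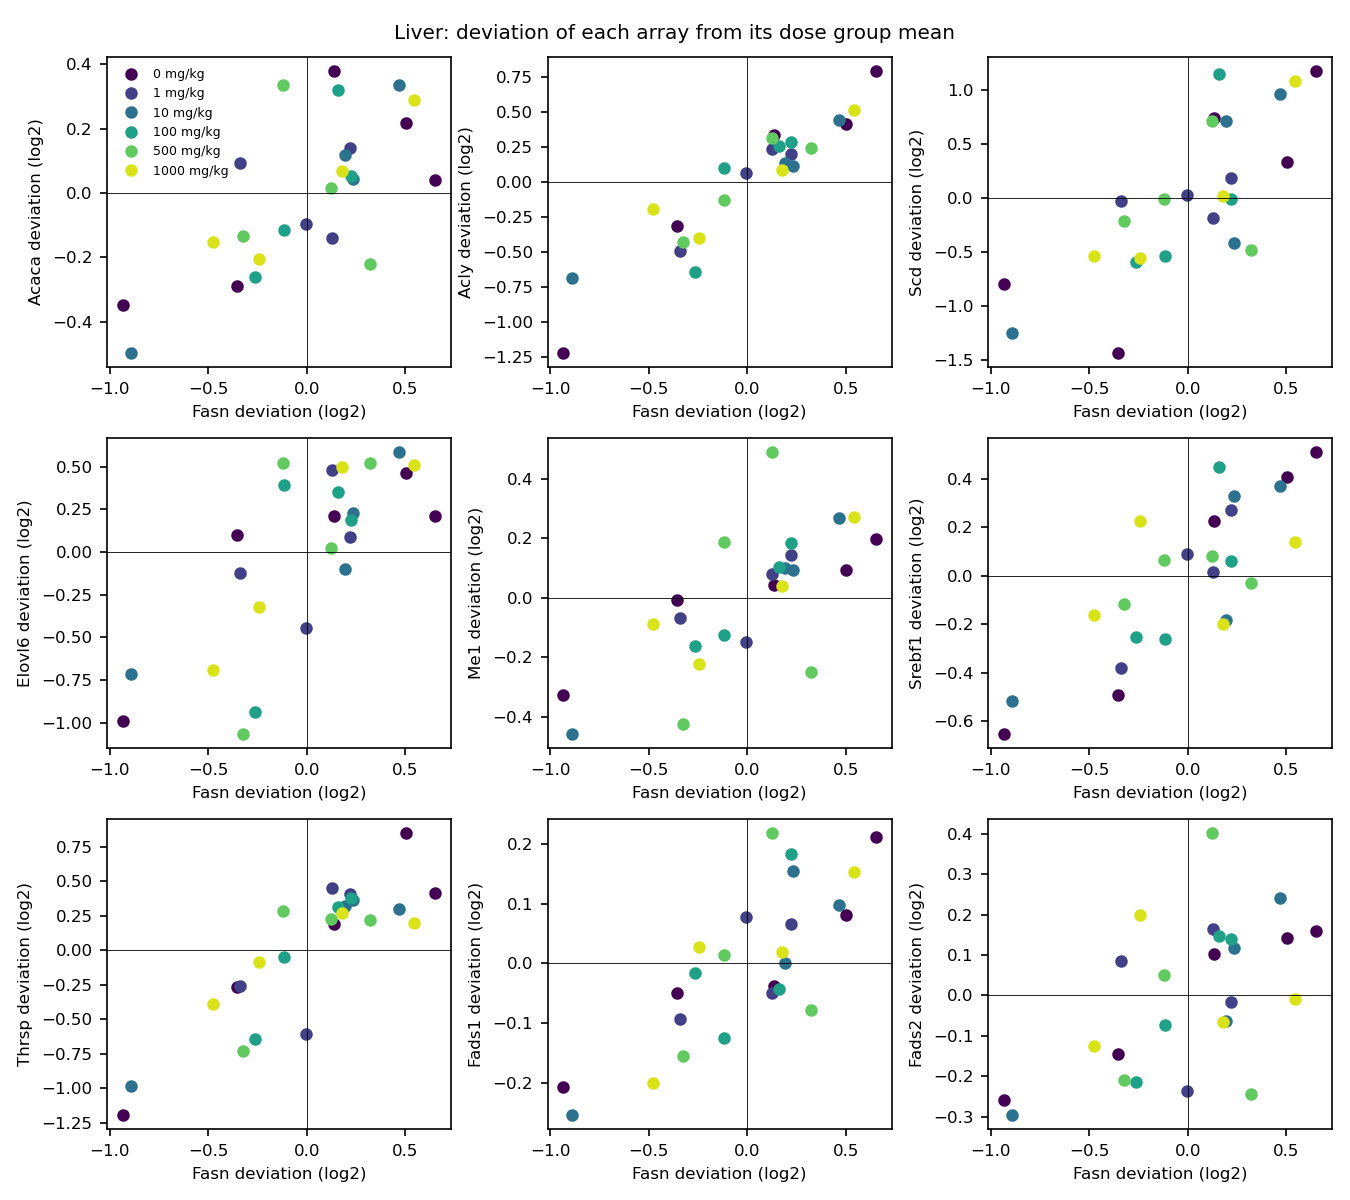
Deviation of each of the 25 livers from the mean of its dose group, Fasn on the x axes and each of the other 9 genes on the y axes, in log2 units, coloured by dose. The points rise together most tightly for Acly (r = 0.94) and Thrsp (r = 0.87) and least for Fads2 (r = 0.56).

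Outside the 10 genes, those most like Fasn over the 25 livers by the same r were Fdps (0.92), farnesyl diphosphate synthase, Mvd (0.85), mevalonate diphosphate decarboxylase, Nsdhl (0.85), a sterol dehydrogenase, Fabp5 (0.84), a fatty acid binding protein, and Slc25a1 (0.84), the mitochondrial citrate carrier. They are the 5 highest outside the 10 genes and provisional symbols among 14217 genes, and are a description.

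The neighbouring pathways in liver were read from lists chosen with earlier results of these data known. In cholesterol synthesis 8 of 17 measured genes were called higher at 1000 mg/kg and 0 lower, against 0.226% and 0.0741% of all probe sets. All 17 changes were positive, with a median of 0.70 against 0.02 over all genes. The 4 with the smallest p were Fdft1, squalene synthase (0.68, limma adjusted p = 0.00385), Acat2, which makes acetoacetyl-CoA (1.14, adjusted p = 0.0113), Mvk, mevalonate kinase (0.62, adjusted p = 0.0181), and Ebp, a sterol isomerase (0.54, adjusted p = 0.0292). Among 9 measured genes of acetyl-CoA and NADPH supply none passed, and the median was 0.13. Acss2, acetyl-CoA synthetase, was at 0.70 (adjusted p = 0.0639), Pgd and Tkt of the pentose phosphate pathway at 0.49 and 0.35, and Pc, pyruvate carboxylase, at -0.43 (adjusted p = 0.0524).

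Of 12 measured partners of elongation and desaturation 1 was called lower and 0 higher (median 0.08), with 9 positive changes and 3 negative. Elovl5, an elongase of polyunsaturated fatty acids, changed by -0.34 (limma adjusted p = 0.0421), while Elovl2 was at -0.39, Cyb5r3, the cytochrome b5 reductase that feeds the desaturases, at 0.34, and Elovl1 at 0.21, none of them called. None of 17 regulators of lipogenesis passed (median 0.08). The 4 with the smallest p were Srebf2, the sterol regulator (0.34), Insig1, which retains SREBP in the endoplasmic reticulum (0.76), the SREBP protease Mbtps1 (0.19) and Nr1h2, an oxysterol receptor (0.22). None passed of 7 measured genes of glycolysis and ChREBP targets (median -0.12). Those with the smallest p there were Txnip (-0.20), Gpd1 (-0.25) and Pklr, pyruvate kinase (-0.31). Nor did any pass of 14 of triglyceride assembly (median 0.20, Gpam, which acylates glycerol 3-phosphate, at 0.61) or of 6 thyroid hormone targets (median -0.08, Thra at -0.33).

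In kidney none of the 17 probe sets was called at 1000 mg/kg, where 191 of all 31042 were (0.615%), 61 higher (0.197%) and 130 lower (0.419%). The median change of the 17 was 0.03, with 9 positive and 8 negative. Of the 17, 5 had unadjusted p under 0.05, against 10.2% of all: both of Srebf1 and 1 of Me1 with positive changes, and Acly and Fads1 with negative ones. In the trend over dose rank 0 of the 17 and 180 of all (0.580%) were called, 41 rising (0.132%) and 139 falling (0.448%), with 5 of the 17 at unadjusted p under 0.05, against 9.55% of all. Without the 7 arrays high in adipocyte markers, 0 of the 17 and 84 of all probe sets (0.271%) were called at 1000 mg/kg, 20 higher and 64 lower. Of the 17, 3 then had unadjusted p under 0.05, Acly and both of Me1, against 9.07% of all. In the trend without those arrays 0 of the 17 and 96 of all (0.309%) were called. At 1, 10, 100 and 500 mg/kg 0 of the 17 were called, and over all probe sets 0 at the first 3 of these doses (0%) and 1 at 500 mg/kg (0.00322%). At the unadjusted level 2, 4, 1 and 3 of the 17 had p under 0.05, against 2.99%, 5.99%, 6.35% and 4.61% of all. Between 1000 and 500 mg/kg 0 of the 17 and 0 of all (0%) were called, with 1 of the 17, Fads1, at unadjusted p under 0.05, against 5.42% of all.

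The arrays high in adipocyte markers held the high values of Thrsp and Fasn in kidney. Of the 8 adipocyte markers 7 were measured, and their mean relative to the control mean was 0.77 in control replicate 4, 1.19 in replicate 1 at 1 mg/kg, 0.62, 0.98 and 1.77 in replicates 1, 3 and 4 at 10 mg/kg, 0.93 in replicate 1 at 100 mg/kg and 1.48 in replicate 1 at 500 mg/kg. It lay between -0.52 and -0.22 in the 4 kidneys at 1000 mg/kg, against -0.34 to 0.77 in the 5 control kidneys. The ranges in the other groups were -0.55 to 1.19 at 1 mg/kg, -0.21 to 1.77 at 10 mg/kg, -0.25 to 0.93 at 100 mg/kg and -0.42 to 1.48 at 500 mg/kg. Adipoq, which encodes adiponectin, and Fabp4, the adipocyte fatty acid binding protein, were above all 17 other kidneys in 7 of the 7 arrays. Cfd and Plin4 were so in 6 of 7. The 7 arrays were picked by the mean of these same markers, so this separation follows in part from the choice. The probe sets used for Lep (3.56 to 4.13) and Plin1 (3.84 to 4.27) stayed low in all kidneys, and Cidec did not separate the arrays. In bulk tissue more cells of a type and more RNA per cell cannot be told apart.

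Thrsp 1371400_at in kidney had 4.39, 4.85, 6.02, 7.29 and 3.78 in controls, 6.97, 5.29, 3.52 and 3.78 at 1 mg/kg and 7.19, 4.35, 7.21 and 9.92 at 10 mg/kg. At 100 mg/kg it had 7.92, 3.81, 4.01 and 4.91, and at 500 mg/kg 8.93, 3.65 and 3.85. The kidneys at 1000 mg/kg had 3.74, 4.10, 3.67 and 4.04. The 7 arrays high in adipocyte markers lay between 6.97 and 9.92, all above the other 17, which lay between 3.52 and 6.02. The same complete separation held for the other probe sets of Thrsp and for both of Fasn. The change of Thrsp 1371400_at at 1000 mg/kg was -1.38 (95% interval -3.63 to 0.87) and was -0.87 without the 7 arrays (limma adjusted p = 0.553). At 10 mg/kg it was 1.90 (limma adjusted p = 0.866), and -0.42 without those arrays, which left 1 array at that dose.

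Fasn 1367708_a_at had 7.78, 7.73, 7.99 and 7.86 in kidneys at 1000 mg/kg, against 7.82, 8.05, 8.06, 8.21 and 7.77 in control kidneys. The groups overlapped, and the change was -0.14 (95% interval -0.55 to 0.27), and -0.08 without the 7 arrays. Its highest values were 9.34 in replicate 4 at 10 mg/kg and 8.71 in replicate 1 at 500 mg/kg. Scd had 4.75, 4.64, 4.48 and 5.43 at 1000 mg/kg, against 5.02, 5.44, 6.77, 8.34 and 4.50 in controls. Its 2 highest controls, replicates 4 and 3, were the control high in adipocyte markers and the one next to it. The change was -1.19 (95% interval -2.47 to 0.08, limma adjusted p = 0.543), and it was -0.61 without the 7 arrays (limma adjusted p = 0.730).

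**Figure D4:**
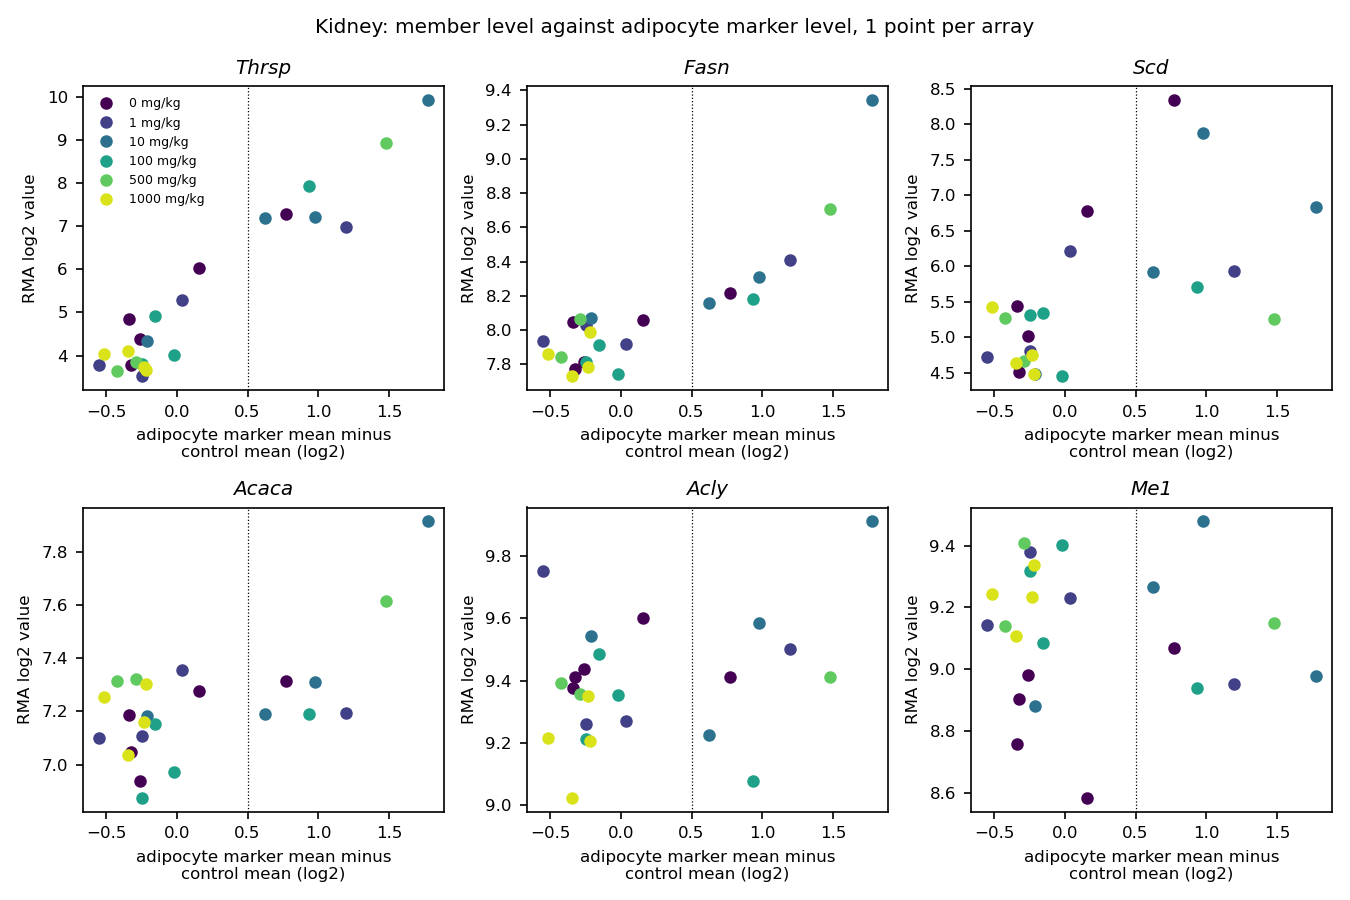
RMA log2 value of 6 genes (y axes) in each of the 24 kidneys against the mean of 7 adipocyte markers relative to the control mean (x axes, log2 units), coloured by dose, with a dotted line at the limit of 0.5. Thrsp and Fasn lie higher in all 7 arrays right of the line than in any array left of it, and Acly and Me1 overlap across it.

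Me1, Srebf1, Acly, Fads1, Fads2, Elovl6 and Acaca overlapped between these 7 kidneys and the other 17. Me1 1370067_at had 9.23, 9.11, 9.34 and 9.24 at 1000 mg/kg, against 8.98, 8.76, 8.58, 9.07 and 8.90 in controls. All 4 lay above every control, and the change was 0.37 (95% interval 0.12 to 0.63, limma adjusted p = 0.236). Without the 7 arrays it was 0.42 (limma adjusted p = 0.124). Against the same controls, the changes at 1, 10, 100 and 500 mg/kg were 0.32, 0.29, 0.33 and 0.37, none called. The second probe set of Me1, 1370870_at, lay between 9.30 and 9.58 at 1000 mg/kg, against 8.83 to 9.47 in controls. It overlapped the controls and was not called, and its change without the 7 arrays was 0.32 (limma adjusted p = 0.433). Srebf1 1388426_at had 7.85, 7.83, 7.89 and 8.25 at 1000 mg/kg, against 7.70, 7.53, 7.87, 7.68 and 7.82 in controls. The highest control lay among them, and the change was 0.23 (95% interval 0.03 to 0.44), with 0.30 on 1371104_at. Neither passed, at limma adjusted p-values of 0.418 and 0.292. Without the 7 arrays both changes were 0.22, with limma adjusted p-values of 0.564 and 0.567.

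Acly in kidney had 9.35, 9.02, 9.21 and 9.22 at 1000 mg/kg, against 9.44, 9.38, 9.60, 9.41 and 9.41 in controls, with all 4 below the lowest control. Its change was -0.25 (limma adjusted p = 0.471), and that of Fads1 was -0.28 (limma adjusted p = 0.447). Acaca 1370893_at, Elovl6 1388108_at and Fads2 had changes of 0.03, 0.15 and 0.07. Without the 7 arrays the change of Acly was -0.26 (95% interval -0.49 to -0.03, limma adjusted p = 0.486) and that of Fads1 -0.19 (95% interval -0.49 to 0.10, limma adjusted p = 0.752). Those of Acaca, Elovl6 and Fads2 on the same probe sets were then 0.08, 0.13 and 0.07.

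**Figure D5:**
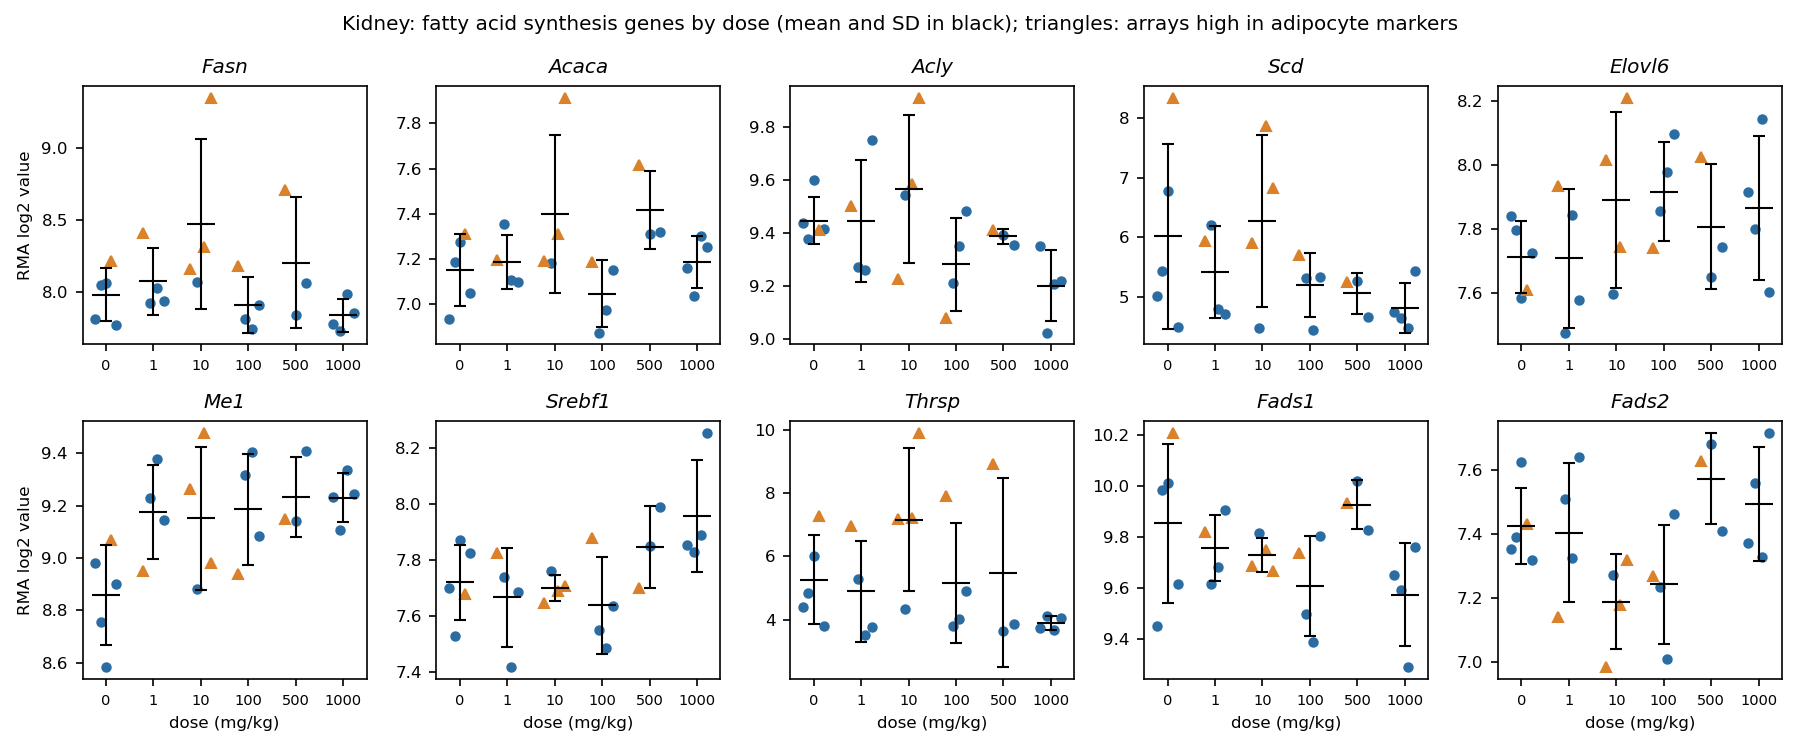
RMA log2 value (y axis) of 1 probe set per gene in each kidney array by dose in mg/kg (x axis), with the mean and SD of each group in black. Triangles mark the 7 arrays high in adipocyte markers, which hold Thrsp values of 6.97 to 9.92, and Me1 at 1000 mg/kg (9.11 to 9.34) lies above the controls.

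Because the kidneys fall apart by these markers, the relation of Fasn with the other genes was read over the 17 arrays not high in them. There 0 of 9 pairs passed when adjusted over the 18 pairs. Over all 24 kidneys 2 of 9 passed, with Acaca and with Thrsp. No r is given for them because the 7 arrays lie apart from the other 17 in Fasn and Thrsp, though they overlap them in Acaca. Without the 2 of all kidneys farthest from the median of Fasn, the pairs with Acaca, Scd and Thrsp passed (permutation adjusted p = 0.022, 0.0165 and 0.0027). Over the 17 arrays the highest r was with Acaca (0.62, rho = 0.61, permutation p = 0.0301, adjusted p = 0.0542), and r with Acly was 0.13 (rho = 0.16, permutation p = 0.584, adjusted p = 0.701). With Thrsp it was 0.39 (rho = 0.34, permutation p = 0.216, adjusted p = 0.354). Without the 2 arrays farthest from the median of Fasn these values were 0.56, 0.01 and 0.44. The median r over the 45 pairs of genes was 0.29, with 15 negative. Whether the organs differ in these correlations was not tested. Ranked by r over all 24 kidneys, the 5 genes outside the 10 most like Fasn were Lpl, lipoprotein lipase, Slc22a3, an organic cation transporter, Cidea, a lipid droplet protein, Pdk4, a pyruvate dehydrogenase kinase, and Cox8b, a subunit of cytochrome oxidase. As a description, over the 17 arrays they were Herc1 (0.92), Frs2 (0.88), Phf12 (0.87), Zfp410 (0.85) and Nxpe1 (0.84). Of all 14217 genes 6.39% had an r above 0.5 with Fasn over these 17 arrays, and 1 of the arrays is the only one left at 10 mg/kg. High values among so many genes are therefore easily reached.

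In the neighbouring lists in kidney at 1000 mg/kg, calls are set against 0.197% of all probe sets called higher and 0.419% lower. Of 12 partners of elongation and desaturation 1 was called higher and 0 lower, with 8 positive changes and 4 negative. Cyb5a, cytochrome b5, which passes electrons to the desaturases, changed by 0.40 (limma adjusted p = 0.00346), and Hacd1, an acyl-CoA dehydratase, was at -0.43 (adjusted p = 0.0603). Of 14 genes of triglyceride assembly 1 was called higher and 0 lower, with 8 positive changes and 6 negative. The called gene was Acsl3, an acyl-CoA synthetase (0.39, limma adjusted p = 0.0143). Of 7 genes of glycolysis and ChREBP targets 1 was called lower and 0 higher, with 3 positive changes and 4 negative. The called gene was Slc2a2, the glucose transporter GLUT2 (-0.53, limma adjusted p = 0.0494). None passed of 9 genes of acetyl-CoA and NADPH supply (Acss2 at 0.38), 17 regulators of lipogenesis (Prkab1, a subunit of AMP kinase, at -0.28), 6 thyroid hormone targets or 17 genes of cholesterol synthesis (Fdft1 at 0.36). In that order, positive and negative changes numbered 5 and 4, 5 and 12, 3 and 3, and 5 and 12. The median of cholesterol synthesis was -0.12. The medians of these 7 lists lay between -0.12 and 0.03, against -0.02 over all genes. Without the 7 arrays high in adipocyte markers, Cyb5a stayed called (0.43, limma adjusted p = 0.00753), while Acsl3 (0.38, adjusted p = 0.0721) and Slc2a2 (-0.51, adjusted p = 0.169) did not pass, and no other gene of the 7 lists did. The medians then lay between -0.09 and 0.05.

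Macrophage markers had a lower mean level in kidneys at 1000 mg/kg than in control kidneys. Of 6 listed markers 5 were measured, and their mean level lay between 5.16 and 5.35 in kidneys at 1000 mg/kg, against 5.43 to 5.49 in control kidneys, with no overlap. Adgre1, the macrophage antigen F4/80, fell in kidney (-0.80, limma adjusted p = 0.0358) and was the 1 of 5 called; it is named after its values were seen. Without the 7 arrays the change of Adgre1 was -0.87 (limma adjusted p = 0.0847). Over all kidneys Csf1r was at -0.34, Cd68 at -0.11 and Cd163 at -0.02, none called. Clec4f went the other way, at 0.07. In liver the mean level lay between 7.89 and 8.27 at 1000 mg/kg, against 8.23 to 8.66 in controls, and all 5 markers had negative changes (median -0.23), none called. The part of these markers in the changes of the gene lists was not tested.

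The responses of the organs at 1000 mg/kg were compared directly, as the liver change minus the kidney change. None of the 17 probe sets passed, against 56 of all (0.180%), and 3 had unadjusted p under 0.05, against 9.23% of all. Fasn 1367708_a_at differed by 0.73 (95% interval 0.01 to 1.46), Me1 1370067_at by 0.43 (95% interval 0.01 to 0.86) and Srebf1 1371104_at by -0.49 (95% interval -0.97 to -0.01). Their limma adjusted p-values were 0.536, 0.534 and 0.532. Without the 7 kidneys high in adipocyte markers 0 of the 17 and 21 of all (0.0677%) passed, and these 3 differences were 0.68, 0.38 and -0.41, each with an interval that includes 0. The call of Me1 in liver and its absence in kidney therefore do not show that the organs differ.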

How the data were processed

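RNA of each liver or kidney was hybridized to 1 Affymetrix rat genome array, per the labels' protocols. The authors deposited 1 log2 value for each probe set and array, which the submitters' processing notes credit to RMA; that the scale is log2 follows from the range of the values. The RMA version, and whether the organs were normalized together, are not given in the sources used here, so levels were compared within an organ. RMA equalizes the arrays at the level of single probes, so a shift common to most genes would largely not show. The deposited probe set values were not fully equal, with array medians of 5.21 to 5.31 in liver. No detection calls were used.

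Of 31099 probe sets, 57 control probe sets were left out, 20826 of the rest had 1 symbol, 436 several and 9780 none. Groups were taken from the sample titles, which number the arrays as biological replicates. The series text gives 4 samples for each dose with compound, and 3 kidneys at 500 mg/kg were analysed here. Replicate numbers were not used to pair arrays. Each organ was fitted over all its arrays (limma 3.58.1, R 4.3.3), and p-values were adjusted over 31042 probe sets. The organ difference used all 49 arrays. Correlations used deviations from dose means and 100000 two-sided permutations within dose groups (NumPy 2.4.6, Python 3.11.15). Where 1 probe set stands for a gene, it has the highest mean over 49 arrays, giving 14217 genes. The fit was tested on simulated data.

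The members, gene lists and tests were chosen with earlier results of these data known. All members are named, and for each list up to 4 genes with the smallest p in that organ, and the 5 genes most like Fasn. Provisional symbols (LOC, RGD, MGC and AABR) were not named. Alternatives were 1 probe set or the mean of all probe sets per gene, brighter probe sets only, quantile normalization, median centring, variance trend, array weights, a replicate block, the 2 groups alone, each array left out, and in kidney the adipocyte marker level as a covariate or arrays high in it left out. The kidney gene lists without those arrays were added after the data were seen.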

Additional observations from a re-analysis of the deposited data

Results flagged for a closer look

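Within dose groups, 14 of 187 sets of 4 or 5 arrays, each of 1 probe set, held 1 array far from the others by Dixon's criterion. Chance alone gives this in about 5% of independent sets, but these sets are not independent. In liver, r between the 2 probe sets of Elovl6 was 0.95, and between Thrsp 1370150_a_at and 1371400_at it was 0.99. The same array is therefore counted more than once, and the 14 cannot be read as an excess. In liver, replicate 3 at 10 mg/kg was low in all probe sets of Thrsp, at 10.1, 9.87 and 8.74, with the other arrays of the group at 11.31 to 11.51, 11.16 to 11.22 and 10.00 to 10.13. Replicate 2 at 500 mg/kg was low in the same probe sets, at 10.25, 10.08 and 8.88, with the others at 11.23 to 11.36, 11.02 to 11.09 and 9.87 to 9.97. Elovl6 was low in control replicate 2, at 6.79 on 1388108_at and 4.19 on 1394401_at, with the other controls at 7.88 to 8.24 and 5.91 to 6.44. It was also low in replicate 1 at 100 mg/kg, at 6.79 and 4.62, with the others at 7.91 to 8.11 and 6.11 to 6.27. In kidney, Fasn 1367707_at stood at 6.2 in replicate 1 at 100 mg/kg, an array high in adipocyte markers, with the others at 5.46 to 5.48. Srebf1 1388426_at stood at 8.25 in replicate 4 at 1000 mg/kg, with the others at 7.83 to 7.89, and Me1 1370870_at at 9.71 in replicate 3 at 1 mg/kg, with the others at 9.38 to 9.42. Acly stood at 9.6 in control replicate 3, with the other controls at 9.38 to 9.44.

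For 3 probe sets, at the dose named below, every liver of that dose lay on one side of the liver control mean. Every kidney of that dose lay on the other side of the kidney control mean. These cases were picked from a search over the probe sets of fatty acid synthesis and the doses. How many such cases chance alone gives with so few arrays in a group, and their share among all probe sets, was not tested. The liver change minus the kidney change was 0.71 for Fasn 1367707_at at 1000 mg/kg (0.56 in liver and -0.16 in kidney) and -0.49 for Srebf1 1388426_at at 1000 mg/kg (-0.26 and 0.23). In the test of the difference at 1000 mg/kg neither passed. For Scd at 500 mg/kg it was 1.59 (0.64 in liver and -0.96 in kidney), and that difference was not tested. The kidney control means include 1 array high in adipocyte markers. Without all arrays high in these markers, the kidney changes at the same doses were -0.05 for Fasn, 0.22 for Srebf1 and -0.47 for Scd. For Fasn, the kidneys at 1000 mg/kg (5.57 to 5.76, mean 5.67) then lay on both sides of the control mean.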

How the results depend on the processing

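The number of called probe sets or genes of fatty acid synthesis was recomputed for 15 comparisons under 320 alternatives and was the same under 313. The starting count was 0 in every comparison except liver at 1000 mg/kg and the liver trend. Most of the 313 therefore kept a count of 0 and say little about the call of Me1. The other 7 all concern liver at 1000 mg/kg, where the count of 1 (Me1) became 0 where all probe sets of a gene were averaged (adjusted p = 0.0795) and where only the 2 groups were fitted (adjusted p = 0.0502). Leaving out 1 array at a time gave 0 to 1, and 0 without control replicate 1, 2 or 4 or without 1000 mg/kg replicate 3 or 4. The cause was not tested. Me1 changed by 0.71 to 0.88 under all these settings, with adjusted p-values of 0.0125 to 0.111. What a replicate number shared between dose groups means is not stated in the labels. Deviations of same-numbered arrays had a mean correlation of -0.01 over 60 pairs in liver, 6 of them above 0.1. In kidney it was 0.05 over 55 pairs, 22 above 0.1. For pairs with different numbers the mean was 0.00 over 200 pairs in liver and -0.02 over 184 in kidney. With the replicate number as a block the count in liver at 1000 mg/kg was 1, with Me1 at 0.83 (adjusted p = 0.0359), and the block moved no count in the other comparisons. Of 20 changes at 1000 mg/kg under 379 alternatives none that was called reversed, and uncalled changes turned sign in 6 (Acaca and Fads2 in kidney, Fads1 in liver, and Acly in liver, which ranged from -0.06 to 0.44). Quantile normalization and median centring moved the median of all probe sets by at most 0.02, but the lower calls over all probe sets in liver at 1000 mg/kg numbered 44 and 18 under them, against 23. Probe sets with low values, such as Acaca 1387538_at and Thrsp in most kidneys, are not shown to lie above background, so changes there may be understated. With 3 to 5 arrays in a group and the spread of Scd, Thrsp and Elovl6, the intervals of their changes at 1000 mg/kg from controls hold either sign.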
